A study of Mus musculus with 9 samples.

Results

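The measurements set the cardiac ventricles of mouse fetuses with 1 intact copy of Esrrg (genotype +/-, here HET) against those of fetuses with both copies (+/+, here WT). Esrrg encodes estrogen-related receptor gamma (ERRγ). These are 6 of the 9 expression arrays of the series, chosen by the genotype in their titles, with 3 HET and 3 WT arrays. The other 3 come from fetuses without an intact copy (-/-, here KO) and add to the estimate of the spread. All fetuses were male, at E18.5 (a late embryonic day), taken by caesarean section, and the arrays of a genotype are labelled as biological replicates. The labels give no treatment and no strain, and neither how the allele was altered nor which part of Esrrg is missing. The source label speaks of 3 ventricles for each array, and whether RNA was pooled is not settled by it, so p-values reflect how far these arrays vary, which may be technical.

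ERRγ is an orphan nuclear receptor that binds DNA at a short response element and works with the coactivators PGC-1α and PGC-1β. It is known for control of genes of oxidative phosphorylation, fatty acid oxidation and ion handling in heart muscle around birth, when the heart turns from glucose towards fatty acids as fuel. The comparison asks which ventricular genes differ when 1 of 2 copies of the receptor gene is gone, a gene dose question.

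The values are MAS5 signals, a linear brightness per probe set scaled to a common trimmed mean per array. Array medians were 36.6 to 45.9 in WT and 39.7 to 44.6 in HET, and precision is limited by how few arrays there are. The 9 cardiomyocyte markers were bright on all 6 arrays, with a summed signal of 133000 to 141000 in WT and 120000 to 134000 in HET. Of liver and lung markers only 1 of 6 and 1 of 5 reached the level needed for testing, and the summed signals were at most 66.3 and 56.1.

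The 3 HET arrays did not form 1 group. In the ratio of the bacterial spike-in controls thr and dap, HET replicate 1 read -0.89 on the log2 scale, within the WT range of -1.02 to -0.81. HET replicates 2 and 3 read -1.33 and -1.24, beside KO arrays at -1.32 to -1.20. The sources used here name neither a hybridisation date nor a run. The spike-in pattern is called the array batch below, with WT and HET replicate 1 in the first batch and the other 5 arrays in the second.

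The genes parted the arrays in the same way. The median absolute log2 difference between arrays over 13028 genes was 0.21 between HET replicate 1 and each WT array, within the 0.19 to 0.23 between WT arrays. It was 0.24 from HET replicate 1 to either of the other HET arrays. HET replicates 2 and 3 differed from each other by 0.18 and from the KO arrays by 0.17 to 0.19, and from WT by 0.23 to 0.27. HET replicate 1 had the lowest array quality weight, 0.455, against 0.702 to 1.41 for the other 8. The weight measures each array against its own genotype, so it repeats this split and is no separate sign of quality. Genotype and batch can be told apart only through HET replicate 1, so genes in which it goes with the other HET arrays are described first.

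**Figure D1:**
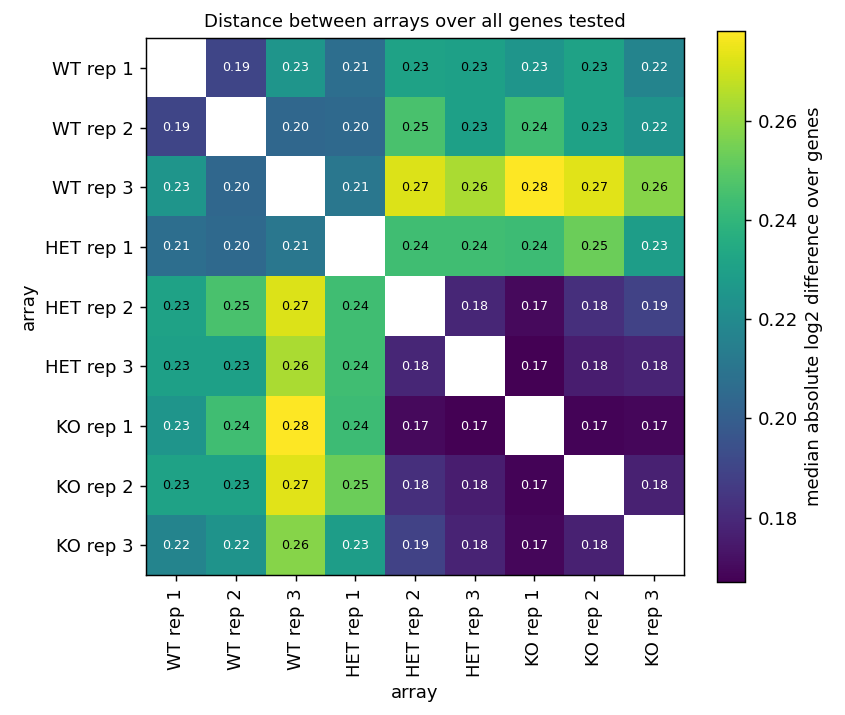
Median absolute difference in log2(signal + 16) over 13028 genes between each pair of the 9 arrays (colour scale and printed value; array names on both axes). HET replicate 1 lies 0.20 to 0.21 from the WT arrays and 0.24 from HET replicates 2 and 3, which lie 0.17 to 0.19 from the KO arrays.

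Esrrg itself was lower on every HET array. Its brightest probe set read 281, 213 and 206 in WT, 162, 164 and 162 in HET, with 58.3, 58.1 and 39.3 in KO. All 3 HET arrays lay below all WT arrays and above all KO arrays, and HET replicate 1 stood with the other HET arrays. The means were 233 ± 41.5 in WT and 163 ± 1.02 in HET (signal, mean ± SD, n = 3), so the HET mean was 69.7% of WT. The difference on the log2(signal + 16) scale was -0.47 ± 0.19 (± SE; limma, unadjusted p = 0.0229, adjusted p = 0.376), and Esrrg was not called. Exchanging the 6 arrays in every way (exact permutation test, two-sided) gave p = 0.1, the smallest possible with these numbers. HET replicate 1 alone differed from WT by -0.47 and HET replicates 2 and 3 by -0.46. From HET to KO the signal fell by a further 1.41 (limma, adjusted p = 0.00862).

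The other 2 Esrrg probe sets were dim and did not follow copy number. One read 52.2, 64.1 and 10.2 in WT against 52.8, 79.8 and 60.7 in HET (exact permutation p = 0.4). The other read 21.5, 37.0 and 56.7 in WT against 34.9, 17.7 and 17.5 in HET (exact permutation p = 0.2). Averaging all 3 probe sets left a difference of -0.10. The sources used here do not place these probe sets inside or outside the altered stretch.

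**Figure D2:**
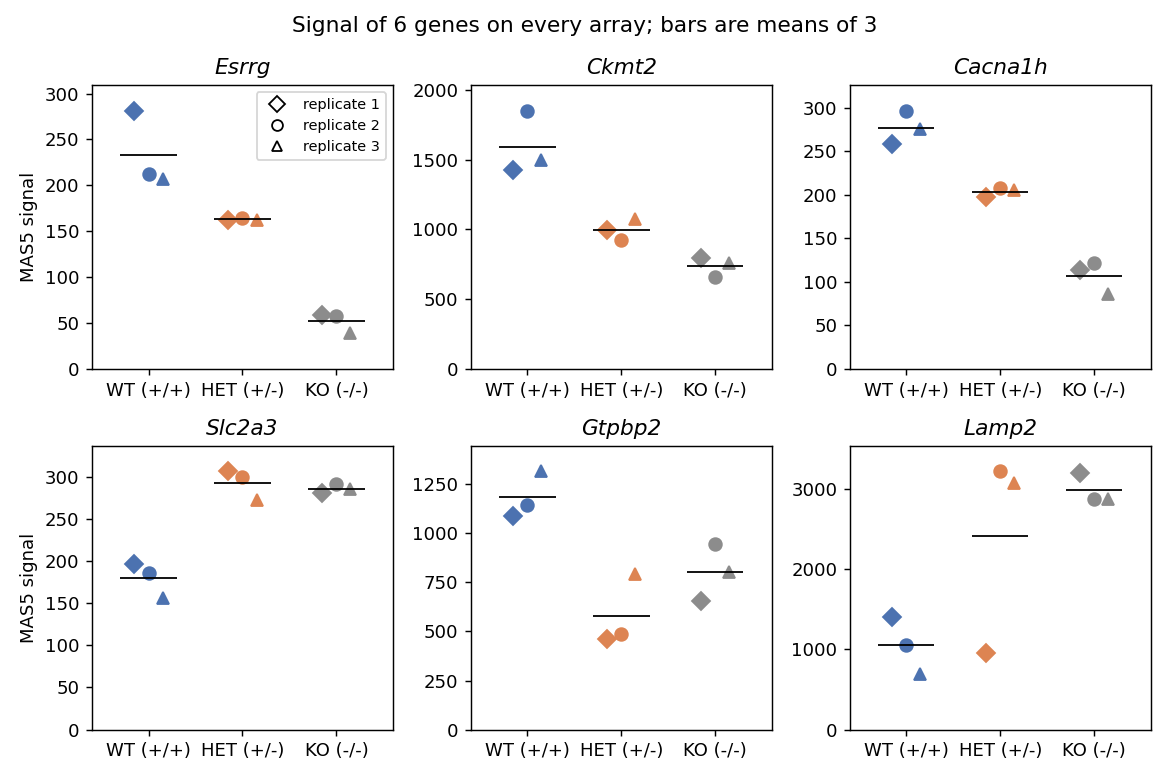
MAS5 signal (vertical axis, linear, from 0) of 6 genes on each array, by genotype (horizontal axis), with a marker shape for each replicate number and a bar at the mean of 3 arrays. In Esrrg, Ckmt2, Cacna1h, Slc2a3 and Gtpbp2 all 3 HET arrays lie on one side of the WT arrays, while in Lamp2 HET replicate 1, at 959, lies among the WT arrays.

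Across the 13028 genes tested, no gene was called between HET and WT at an adjusted p under 0.05 (limma with Benjamini-Hochberg adjustment; 0% called, smallest adjusted p 0.0973). At an unadjusted p under 0.05 there were 1499 genes (11.5%), 730 higher and 769 lower in HET. In bulk tissue, fewer cells of a type and less RNA per cell cannot be told apart in any of these values. Without HET replicate 1 the same fit called 574 genes (4.41%), 263 higher and 311 lower. Of these 574, 66 met the agreement rule below in all 3 HET arrays, against 1242 of all 13028 genes. In 383, HET replicates 2 and 3 lay beyond the WT arrays and HET replicate 1 did not, against 2568 of all genes. The 574 were themselves picked by HET replicates 2 and 3 against WT. Within the first batch, where HET replicate 1 alone stands against the 3 WT arrays, 2 genes were called (0.0154%).

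A gene was taken to agree where all 3 HET arrays lay on one side of all WT arrays and the difference of HET replicate 1 from the WT mean was 0.5 to 2 times that of the mean of HET replicates 2 and 3. By this rule 629 genes agreed on the higher side in HET (4.83%) and 613 on the lower side (4.71%). With all arrays brought to the same median the split was 331 higher and 1214 lower, 78.6% lower in place of 49.4%, and after quantile normalization it was 507 and 630. Without the limit on the ratio, all HET arrays lay above all WT arrays in 819 genes (6.29%) and below them in 966 (7.41%). With 3 against 3 exchangeable arrays, such separation in either direction is met by a share of 0.1 of genes without any difference. Whether the counts here exceed that share was not tested. Genes in which HET replicates 2 and 3 both lay beyond the WT arrays and HET replicate 1 did not were more numerous, with 1119 higher (8.59%) and 1449 lower (11.1%).

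The agreeing genes named here were the 10 in each direction with the smallest unadjusted p among those with a mean signal of at least 100 and a difference of at least 0.3. None of them was called, so their differences are given as values. In every gene chosen as agreeing, here and in the lists below, the rule itself sets HET apart from WT without overlap. It also places HET replicate 1 with the other HET arrays, so neither is a separate result. Where KO values are given beside them, KO and HET are set against the same WT arrays.

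Among genes of energy supply, Ckmt2, the creatine kinase of muscle mitochondria, was lower on every HET array. It read 1430.0, 1852 and 1495 in WT, 999, 921 and 1073 in HET, with 793, 657 and 762 in KO. The groups did not overlap, and the HET mean of 998 ± 76.2 was 62.7% of the WT mean of 1592 ± 227. The difference was -0.66 ± 0.11 (limma, adjusted p = 0.0973), -0.65 in HET replicate 1 and -0.66 in the other HET arrays. Ckmt2 has a single probe set on the array. Mrps26, a protein of the small subunit of the mitochondrial ribosome, read 1369.8, 1421 and 1448 in WT and 1097, 925 and 1097 in HET, with no overlap (-0.44 ± 0.10, adjusted p = 0.285). The glucose transporter gene Slc2a3 (GLUT3) was higher on every HET array, at 306, 299.7 and 272 against 196, 186 and 156 in WT. Its difference was 0.66 ± 0.13 (adjusted p = 0.23), and all 4 of its probe sets were higher in HET.

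Among genes of protein synthesis and its control, Gtpbp2, which encodes a GTPase of ribosome rescue, had the largest difference of the 20, -1.04 ± 0.17 (adjusted p = 0.0973). Its brightest probe set read 1088, 1145 and 1315 in WT and 459.7, 489 and 793 in HET, with HET replicates 1 and 2 lowest. Its other 3 probe sets did not share this, with differences of 0.10, 0.06 and 0.36. Wdr75, a factor of ribosome assembly, read 169, 142 and 134 in WT and 221, 271 and 245 in HET (0.67 ± 0.15). Eprs, the glutamyl-prolyl-tRNA synthetase, read 257, 365 and 229 in WT, 396, 485 and 430.0 in HET, with 618, 653 and 635 in KO (0.62 ± 0.15). Both were higher on all HET arrays, but the other 2 probe sets of Eprs above the filter differed by -0.03 and -0.05. Nedd8, the ubiquitin-like protein that modifies cullins, was lower, at 3335, 2975 and 3108 against 3972, 3663 and 4181 in WT (-0.33 ± 0.07, 1 probe set).

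Among genes of the cell surface and of signalling, Tspan12, a tetraspanin of Frizzled-4 signalling, was higher on every HET array. Its single probe set read 112, 83.0 and 90.8 in WT, 172, 224 and 221 in HET, with 200.5, 180.4 and 153 in KO. HET replicate 1 was the lowest of the HET arrays, and above all WT arrays by the rule. The difference was 0.99 ± 0.17 (adjusted p = 0.119), and the HET mean was 216% of WT. Igfbp5, which binds insulin-like growth factors, read 2155, 1791 and 1929 in WT and 2390.4, 2843 and 2484 in HET (0.39 ± 0.09). Gja3, the gap junction protein connexin 46, read 247, 245 and 214 in WT, 309.9, 404 and 368 in HET, with 501, 440.2 and 411 in KO (0.58 ± 0.13). In both genes HET replicate 1 was the lowest of the 3 HET arrays, and both probe sets of each were higher in HET.

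The kinase gene Sgk3 read 159, 164 and 109.9 in WT and 220.2, 224 and 242 in HET (0.63 ± 0.16), and all 3 of its probe sets were higher. Ppp1r1b, which encodes the phosphatase inhibitor DARPP-32, read 328, 399.6 and 246 in WT and 479, 587 and 563 in HET (0.74 ± 0.17). Itga3, a laminin-binding integrin chain, read 112, 139 and 106 in WT and 193, 191 and 207 in HET (0.66 ± 0.16). The 3 were higher on all HET arrays, but the other 2 probe sets of Itga3, both dimmer, differed by -0.05 and -0.18. Cog8, a subunit of a Golgi tethering complex, was higher on 1 probe set (0.77 ± 0.16; 173, 129.5 and 164 in WT and 308, 288 and 233 in HET) and lower on 2 others (-0.26 and -0.33).

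The remaining 6 genes were lower on all HET arrays. Oga, the enzyme that removes O-GlcNAc from proteins, read 2148, 2032 and 1926 in WT and 1388, 1053 and 1618 in HET (-0.60 ± 0.13), with 3 of its 6 probe sets lower. Dock9, an activator of the small GTPase Cdc42, read 229, 209 and 277 in WT and 117, 89.9 and 149 in HET (-0.93 ± 0.21), and its next brightest probe set differed by -0.08. Ckap2l, a mitotic spindle protein, read 610.1, 551 and 568 in WT and 379.6, 474 and 319 in HET (-0.56 ± 0.13), and its second probe set differed by 0.01. In Dock9 and Ckap2l the difference was thus that of 1 probe set. Mast2, a microtubule-associated kinase, had a difference of -0.43 ± 0.10, Cntd1, a factor of meiotic crossover, one of -0.73 ± 0.15, and 0610012G03Rik one of -0.43 ± 0.08. The value of Cntd1 was that of 1 probe set. Its others were dim, at WT means of 33.1 and 39.8, and differed by -0.24 and 0.01. The second bright probe set of 0610012G03Rik, at a WT mean of 1782, differed by -0.02.

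**Figure D3:**
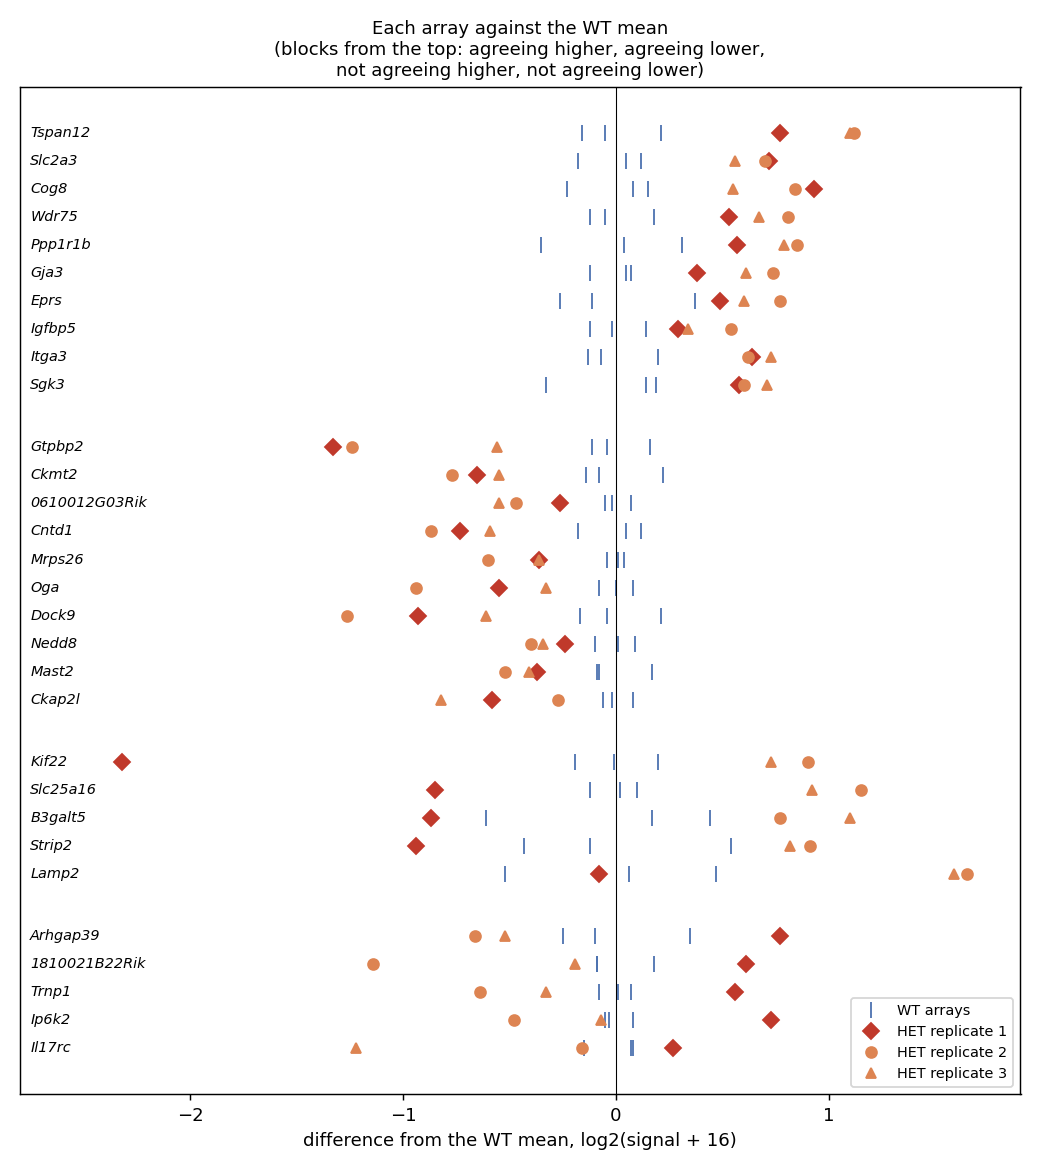
Difference of each HET array (diamond, circle, triangle) and each WT array (blue bars) from the WT mean, in log2(signal + 16), for the 20 named agreeing genes and the 10 that did not agree. In the upper blocks the diamond of HET replicate 1 lies with the other HET arrays, as for Gtpbp2 and Tspan12, and in the lower blocks it lies apart from them, down to -2.32 in Kif22.

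The genes with the widest gap between HET replicate 1 and the other HET arrays were named by the same kind of rule, 5 in each direction. Lamp2, a lysosomal membrane protein, had the highest level among them. It read 1407, 1053 and 700.4 in WT, 959, 3220.5 and 3083 in HET, with 3202, 2879 and 2878 in KO, so HET replicate 1 lay among the WT arrays, while replicates 2 and 3 were above all WT arrays and near the KO arrays. The fit without HET replicate 1 called it higher (1.62, adjusted p = 0.000368), and with the batch as a block its value was -0.08. All 4 probe sets of Lamp2 were higher in HET in the mean. Slc25a16, a mitochondrial carrier, read 178, 151 and 167 in WT and 84.6, 387 and 325 in HET. Strip2, a subunit of a phosphatase and kinase complex, read 105, 133 and 220.5 in WT and 68.5, 288 and 271 in HET. B3galt5, a galactosyltransferase, read 77.7, 146 and 178 in WT and 62.5, 228 and 292 in HET. In these 3 genes HET replicate 1 was below all WT arrays and the other HET arrays were above all of them.

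Kif22, a chromosome-binding kinesin, was 1 of the 2 genes called within the first batch, where it fell by 2.32 ± 0.24 (limma, adjusted p = 0.000938). Its brightest probe set read 673, 882 and 765 in WT and 141, 1445 and 1282 in HET. The low value of HET replicate 1 was not shared by the other 2 probe sets of the gene, which read 271 and 438 there against WT ranges of 261 to 364 and 440 to 517. Adck2, a kinase-like gene, was the other, with 99.2, 111 and 98.6 in WT and 16.1, 132 and 101 in HET (-1.89, adjusted p = 0.0395). Both calls rested on the value of this 1 array.

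In the opposite direction HET replicate 1 was above all WT arrays and HET replicates 2 and 3 below all of them in Arhgap39, 1810021B22Rik, Trnp1, Ip6k2 (an inositol phosphate kinase) and Il17rc (an interleukin 17 receptor chain). Arhgap39 read 228, 163 and 145 in WT and 311, 106 and 117 in HET. Their mean signals over the 6 arrays were low, from 103 in Il17rc to 178 in Arhgap39. Emp1 and Tufm lay between these patterns. Emp1, an epithelial membrane protein, read 592, 536 and 389.9 in WT and 601, 1512 and 1466 in HET. Tufm, the elongation factor of mitochondrial translation, read 2029, 2473 and 2265 in WT and 1604, 1185 and 1050.1 in HET. In both, HET replicate 1 lay on the HET side of all WT arrays, but by less than 0.5 times the difference of the other HET arrays, -0.48 against -1.0 in Tufm. Tufm had 1 of the 3 smallest p-values of the comparison (-0.83 ± 0.14, adjusted p = 0.0973), while its second bright probe set differed by 0.11.

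The respiratory chain lists had lower medians in HET replicates 2 and 3 than in HET replicate 1, in which those of complexes I, III and IV were not below 0. Of 33 complex I genes tested, 28 were lower in HET and 0 were called, with a median difference of -0.12 against -0.01 over all genes tested. By array the list median was 0.02 in HET replicate 1, -0.21 and -0.15 in HET replicates 2 and 3, and -0.05 to 0.04 in the WT arrays. For complex II all 4 genes were lower (median -0.13), for complex III all 10 (-0.09), for complex IV 9 of 12 (-0.07) and for complex V 15 of 16 (-0.09). The medians in HET replicate 1 were -0.05, 0.00, 0.02 and -0.04, and 3 of 4, 5 of 10, 6 of 12 and 13 of 16 genes were lower on that array. Over all genes tested 6187 of 13028 were lower there. After quantile normalization the complex IV median was 0.02, and those of the other 4 complexes were -0.07 to -0.02.

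Some single subunits showed the same order of arrays, and others, such as Uqcrc2, did not. Ndufs1, a core subunit of complex I, read 8964, 8958 and 9525 in WT, 8417, 7298 and 7849 in HET, with 7562, 7261 and 7439 in KO (-0.22 ± 0.06). Atp5e, a subunit of the ATP synthase, read 10468, 11509.9 and 10891 in WT and 10705, 8852 and 8618 in HET, where HET replicate 1 lay within the WT range. Cox5b of complex IV read 23269, 23745 and 28332 in WT and 23832, 20512 and 19624 in HET (-0.07 in HET replicate 1, -0.32 in the others). Across the 5 complexes 10 of 75 genes agreed lower (13.3%, against 4.71% of all genes), among them 3 of complex III (Uqcrc2 (-0.12), Uqcrh (-0.08) and Uqcrq (-0.23)) and 4 of complex I (Ndufa10 (-0.09), Ndufab1 (-0.08), Ndufv1 (-0.17) and Ndufv3 (-0.42)). With probe sets averaged per gene, Uqcrq and Ndufab1 were higher in HET. Uqcrc2, a core protein of complex III, read 11819.7, 12485 and 12547 in WT and 11152, 11288 and 11511 in HET, a difference of -0.12 ± 0.05 (unadjusted p = 0.0466, adjusted p = 0.426). In complex I, 18 of 33 genes (54.5%, against 11.1% of all genes) were lower in HET replicates 2 and 3 and not in HET replicate 1.

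In fatty acid oxidation and the mitochondrial ribosome too the medians were lower in HET replicates 2 and 3 than in HET replicate 1. Of 26 fatty acid oxidation genes 19 were lower (median -0.10), with array medians of -0.01, -0.17 and -0.13 in HET replicates 1, 2 and 3. Hadh, a dehydrogenase of the β-oxidation spiral, read 13863, 14104 and 14336 in WT and 13681, 11500.2 and 11955 in HET. The list had 3 genes that agreed lower (11.5%, against 4.71%), Cpt2 (-0.23), Hadhb (-0.08) and Etfa (-0.17). With probe sets averaged per gene, Cpt2, Hadhb and Hadh were higher in HET. Etfa, which passes electrons from β-oxidation to the respiratory chain, read 5586, 5844 and 5894 in WT and 5242, 5039 and 5148 in HET. Slc27a1, a fatty acid transport protein, was the 1 gene of the list that agreed higher (3.85%, against 4.83%). It read 56.5, 49.1 and 79.9 in WT and 146, 101 and 124 in HET, the HET mean being 200.0% of WT (0.85 ± 0.21, adjusted p = 0.293), and its second probe set had the opposite sign. Of 72 genes of the mitochondrial ribosome 60 were lower (median -0.12), with array medians of -0.05, -0.21 and -0.12. On HET replicate 1 alone 50 of the 72 were lower. Of the 72, 6 agreed lower (8.33%, against 4.71% of all genes) and 1, Mrps17 (0.05, and -0.02 with each array shifted to one median), agreed higher.

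The lists of glucose use and creatine transfer had smaller medians. In the citric acid cycle with pyruvate dehydrogenase, 13 of 21 genes were lower (median -0.05), and of 20 glycolysis genes 12 (median -0.07). Both medians were above 0 after quantile normalization, 0.03 and 0.01. Pdhb, the β subunit of pyruvate dehydrogenase E1, was the 1 gene of these lists that agreed lower. That is 4.76% of the citric acid cycle list and 0% of the glycolysis list, against 4.71% of all genes. Pdhb read 10568, 11257 and 11148 in WT and 10020.4, 9771 and 10136 in HET (-0.14 ± 0.06). Of 14 genes of creatine and energy transfer 8 were lower, and Ckmt2 was the 1 that agreed (7.14%, against 4.71% of all genes lower). The KO array values of these lists are compared with the same WT arrays and add no independent sign.

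**Figure D4:**
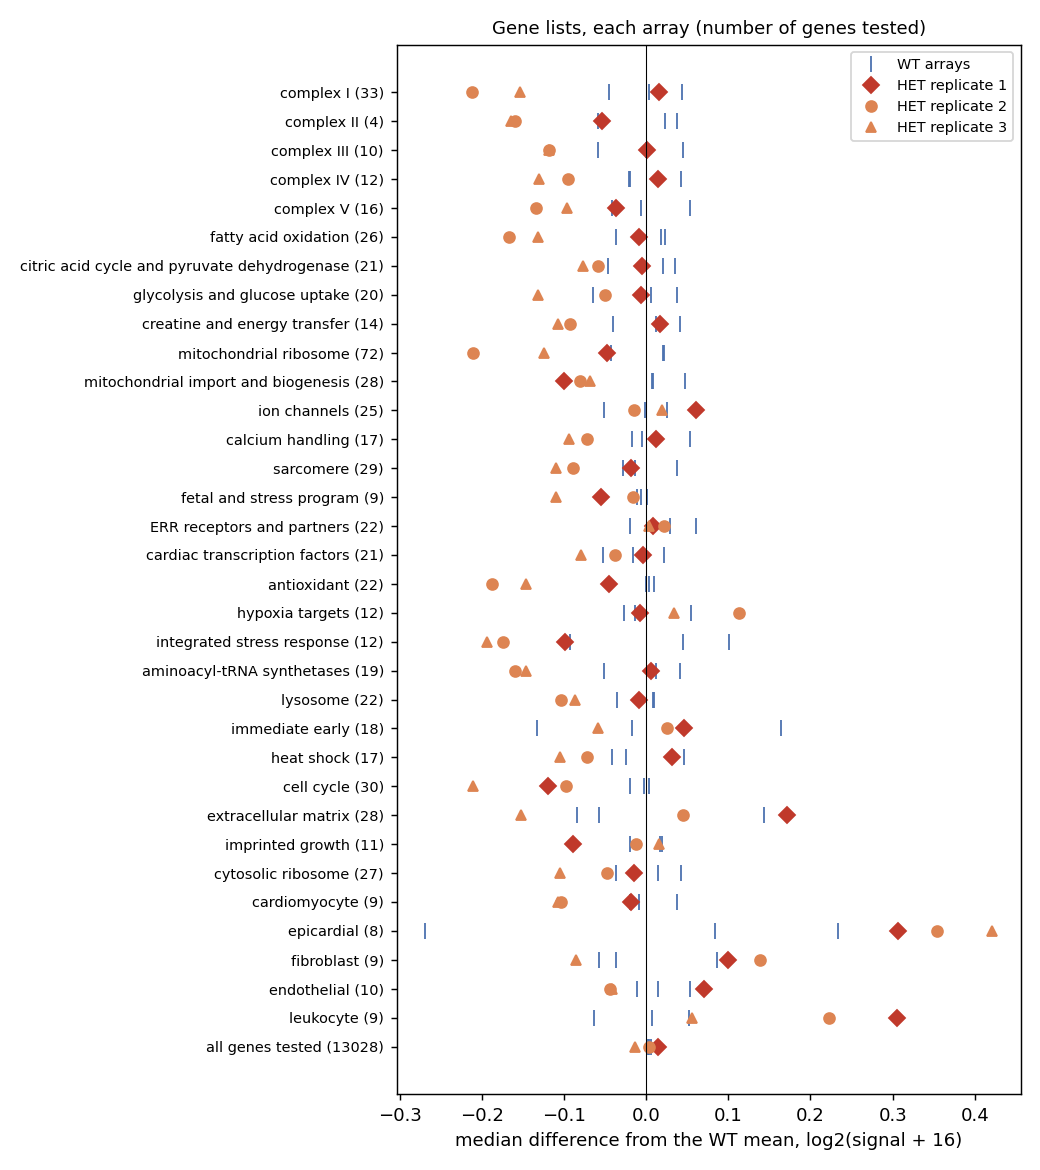
Median over the genes of each list of the difference from the WT mean, in log2(signal + 16), for each HET array (diamond, circle, triangle) and each WT array (blue bars), with the number of genes tested in brackets. For complex I the median is 0.02 in HET replicate 1 and -0.21 and -0.15 in the others, and for the cell cycle list all 3 HET arrays lie at -0.10 or below.

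The cell cycle list had a median in HET replicate 1 that lay between those of the other HET arrays. Of its 30 genes tested 25 were lower in HET and 0 were called (median -0.13), with array medians of -0.12, -0.10 and -0.21 in HET replicates 1, 2 and 3 against -0.02 to 0.00 in WT. Its median was -0.11 after quantile normalization and -0.20 with each array shifted to one median. The list had 5 genes that agreed lower (16.7%, against 4.71% of all genes), Mki67 (-0.34), Ccna2 (-0.21), Ccnb2 (-0.16), Ccnd1 (-0.22) and Mcm7 (-0.45). A further 7 of the 30 (23.3%, against 11.1%) were lower in HET replicates 2 and 3 and not in HET replicate 1. In the same way 2 were higher (6.67%, against 8.59%). Mcm7, a subunit of the replicative helicase, read 2395, 2243 and 2971 in WT and 1938, 1996 and 1601 in HET. Mki67, the proliferation marker Ki-67, read 1113, 1106 and 946 in WT and 888, 893 and 722 in HET. In both genes no HET array reached the lowest WT array. Cdc20 and Aurka, which act in mitosis, read 2175, 1950.3 and 1689.5 and 935, 757 and 675 in HET against 2317, 2645 and 2413 and 953, 1101 and 998 in WT, with HET replicate 1 nearest to WT in both.

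The import and biogenesis list of mitochondria had array medians of -0.10, -0.08 and -0.07 in HET against 0.01 to 0.05 in WT, but 0.01 over its single probe sets. Of its 28 genes 17 were lower, and 4 agreed lower (14.3%, against 4.71% of all genes), Timm10 (-0.17), Tsfm (-0.26), Mfn1 (-0.16) and Opa1 (-0.23). With probe sets averaged per gene, Opa1 was higher in HET. In the opposite direction 8 of the 28 (28.6%, against 8.59%) were higher in HET replicates 2 and 3 and not in HET replicate 1, such as Tomm20, an import receptor of the outer membrane, with 2377, 2859.5 and 2715 in WT and 2477, 3981 and 3963 in HET. The integrated stress response list had 11 of 12 genes lower (median -0.15), with array medians of -0.10 in HET replicate 1 and -0.09 in WT replicate 1. Its 3 genes that agreed lower (25%, against 4.71%) were Asns (-0.24), Shmt2 (-0.14) and Mthfd2 (-0.38). Mthfd2, a mitochondrial enzyme of folate metabolism, read 364, 386 and 455 in WT and 329, 292 and 289 in HET. The antioxidant list had 17 of 22 lower (median -0.16), with -0.04 in HET replicate 1, and catalase (Cat) was higher in HET replicates 2 and 3 alone, at 480.0, 1021 and 921 against 551, 418 and 422 in WT.

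Among genes of contraction and excitation, 22 of 29 sarcomere genes were lower in HET (median -0.08; -0.01 after quantile normalization), with -0.02 in HET replicate 1. Of 25 ion channel genes 12 were higher and 13 lower, and 4 agreed, Cacna1h (-0.41), Kcne1 (-0.13), Kcnj2 (0.67) and Kcnj12 (0.31). That is 8.0% in each direction, against 4.71% of all genes lower and 4.83% higher. Cacna1h encodes a T-type calcium channel and Kcne1 an accessory subunit of a slow potassium channel. Kcnj2, the inward rectifier Kir2.1, read 34.5, 39.6 and 30.3 in WT and 69.7, 47.4 and 81.2 in HET. It was higher on all HET arrays without being called (adjusted p = 0.426). Of 17 calcium handling genes 11 were lower and 1 agreed (5.88%), Asph, with 1250.5, 1279.5 and 1213 in WT and 1074, 1074 and 1147 in HET. Trdn, which encodes triadin of the calcium release complex, had 752, 866 and 757 in WT and 652, 1457 and 1349 in HET, so it was below WT in HET replicate 1 and above WT in the others.

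Of 21 cardiac transcription factors 3 agreed, Hand1 (0.98), Hand2 (0.30) and Irx3 (-0.42), 1 lower (4.76%, against 4.71% of all genes) and 2 higher (9.52%, against 4.83%). Hand1 and Hand2 are related basic helix-loop-helix factors of the ventricles. Hand1 read 77.4, 16.9 and 51.3 in WT and 93.8, 93.0 and 117 in HET (0.98 ± 0.32, limma, adjusted p = 0.318). It was dim, with WT replicate 2 under the filter signal of 21.7, and the WT arrays were spread widely. Hand2 read 1047, 1087 and 1049 in WT and 1203, 1347 and 1382 in HET (0.30 ± 0.08, adjusted p = 0.293). Irx3, a factor of the ventricular conduction system, read 551, 534 and 587 in WT and 381, 436 and 424 in HET. By the rule the 3 had no overlap between HET and WT, and none was called. Hey2 did not agree, at 348, 330.3 and 329 in WT and 316, 677 and 716 in HET. Among 22 receptors and partners of the ERR family, 11 were higher and 11 lower, and the 1 that agreed (4.55%, against 4.83% of all genes higher) was Esrrb, the gene of ERRβ, with 87.3, 133 and 107 in WT and 135, 139 and 148 in HET (0.34 ± 0.18, adjusted p = 0.493).

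Of the 9 genes of the fetal and stress program 3 agreed lower (33.3%, against 4.71% of all genes), Nppb (-0.17), Myh7 (-0.10) and Tnfrsf12a (-0.38). Nppb, which encodes B-type natriuretic peptide, read 6575, 7415 and 6503 in WT and 5786, 6426 and 6042 in HET, and Tnfrsf12a, the receptor of TWEAK, 2247, 2840.2 and 2324 in WT and 1946, 1879 and 1827 in HET. Nppa, which encodes atrial natriuretic peptide, was higher by 0.09 ± 0.06. So the natriuretic peptide genes had opposite signs in HET. The immediate early gene Nr4a1 agreed higher, with 241, 299.8 and 204 in WT and 364, 397 and 343 in HET (0.55 ± 0.15). Of 17 heat shock genes 9 were higher and 8 lower (median 0.02), and 1 agreed in each direction (5.88% each, near the shares of all genes). These were the chaperone gene Hspb8, lower, with 856, 903 and 789.7 in WT and 691, 698 and 660.1 in HET, and Dnaja1, higher, with 2346, 2431 and 2286 in WT and 2441, 2471 and 2497 in HET (0.07, and 0.00 with each array shifted to one median).

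Markers of other cell types stood beside these values. All 8 epicardial markers were higher in HET (median 0.23) and 0 were called, with a summed signal of 1000 to 1550 in WT and 1670 to 1880 in HET, so the summed signals did not overlap. The WT arrays were spread widely, with list medians of 0.23, 0.08 and -0.27 against 0.31, 0.35 and 0.42 in HET, and 2 of the 8 markers were lower in HET replicate 1. Upk3b, a uroplakin of the mesothelium, read 339, 306 and 156 in WT and 394, 356 and 428 in HET. It was the 1 epicardial marker that agreed (12.5%, against 4.83% of all genes), and WT replicate 3 was the lowest array. Tbx18 was nearer to WT in HET replicate 1 (269.7, 431 and 410.4 against 263, 218 and 195). Of 9 leukocyte markers 5 were higher and 4 lower (median 0.01; 0.30 in HET replicate 1 and 0.03 in the others). Of these 3 agreed higher (33.3%, against 4.83% of all genes), Adgre1 (0.37), S100a8 (0.39) and S100a9 (0.30), and the summed signal was 1340 to 1510 in WT and 1560 to 1750 in HET. Adgre1 and S100a8, of macrophages and neutrophils, read 142, 127 and 158 and 165, 172 and 165 in HET against 108, 108 and 103 and 127, 129 and 115 in WT. Ptprc, the common leukocyte antigen CD45, read 25.7, 71.6 and 25.7 in HET against 52.4, 44.5 and 34.0 in WT, lower on HET replicates 1 and 3 and higher on HET replicate 2. The 9 cardiomyocyte markers were all lower (median -0.09), with -0.02 in HET replicate 1. The part of cell composition in the differences above was not tested.

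The 27 genes chosen in an earlier reading of these data for large KO differences show where HET lies on the way to KO. They were selected on KO against the same WT arrays used here (211 genes, 1.62%, called in KO against WT), so the side on which HET lies is given as a description. By the agreement rule 9 agreed lower (33.3%, against 4.71% of all genes) and 3 agreed higher (11.1%, against 4.83%). In HET replicates 2 and 3 alone 6 were higher (22.2%, against 8.59%) and 2 lower (7.41%, against 11.1%). The other 7 met neither rule. Cacna1h, the T-type calcium channel gene, read 258, 297 and 275 in WT, 198, 208 and 206 in HET, with 114, 122 and 86.2 in KO. HET lay at 73.5% and KO at 38.8% of WT, with no overlap between the 3 genotypes. The HET difference was -0.41 ± 0.15 (adjusted p = 0.357), -0.45 in HET replicate 1 and -0.39 in the other HET arrays.

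Ntn1, the secreted guidance protein netrin-1, had the same order. It read 1911, 1742 and 1769 in WT, 1550.2, 1464 and 1405 in HET, with 794, 895 and 1004 in KO, or 81.5% and 49.7% of WT. From HET to KO it fell by 0.71 (limma, adjusted p = 0.00862), while the HET difference from WT was -0.29 ± 0.09 (adjusted p = 0.315). Gtsf1, a factor of the piRNA pathway, read 333, 268 and 223 in WT, 200.0, 128 and 172 in HET, with 46.8, 81.3 and 58.8 in KO. HET replicate 1 was the highest of the HET arrays. Of the 2 probe sets of Gtsf1, both above the filter, only the one used was lower in HET. Thbs4, which encodes thrombospondin 4 of the extracellular matrix, read 325, 279.6 and 391 in WT, 429, 479 and 416 in HET, with 796, 732 and 705 in KO (0.41 ± 0.13). In these 4 genes HET lay between WT and KO on every array, on the probe set used.

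The mean of HET also lay between those of WT and KO in others of the list that agreed. Gpx3, a secreted glutathione peroxidase, stood at 87.9% of WT in HET and 67.4% in KO, and Kcne1 at 91.3% and 67.3%. Fndc5, the precursor of irisin, stood at 68.4% and 42.9%, and Pipox, a peroxisomal oxidase, at 58.9% and 34.4%. Anp32a, an acidic nuclear phosphoprotein, read 2328, 1673 and 1356 in WT, 779, 1126 and 824 in HET, with 627, 1287 and 535 in KO. Its HET mean was 50.9% of WT, close to the KO mean of 45.7%. 0610010F05Rik stood at 157% in HET and 213% in KO, and only 1 of its 2 probe sets was higher in HET. Syn3, a synapsin gene, went against this order, with 42.7, 70.6 and 68.8 in WT, 82.3, 74.3 and 27.5 in HET, with 6.21, 18.2 and 4.98 in KO, and its HET mean was 101% of WT.

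The genes that did not agree were Lamp2, Erbin, Lrrc58, Zfp799, Hbb-b2 and Myl1, higher, and Mt3 and Perm1, lower, in HET replicates 2 and 3. In Erbin, a scaffold protein of receptor signalling, the arrays read 140.3, 174 and 178 in WT, 162, 358 and 316 in HET, with 354, 321 and 325 in KO. Myl1, a fast muscle myosin light chain, read 1790.5, 1264 and 1046 in WT, 1330.3, 1834 and 1984 in HET, with 3114, 3506 and 2183 in KO. Perm1, a muscle partner of PGC-1 and ERR, read 592, 459 and 565 in WT, 539, 385 and 423 in HET, with 326, 288 and 349 in KO. In these genes HET replicate 1 read as the WT arrays did, and with the batch as a block the 3 HET differences were -0.01, 0.00 and 0.01.

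**Figure D5:**
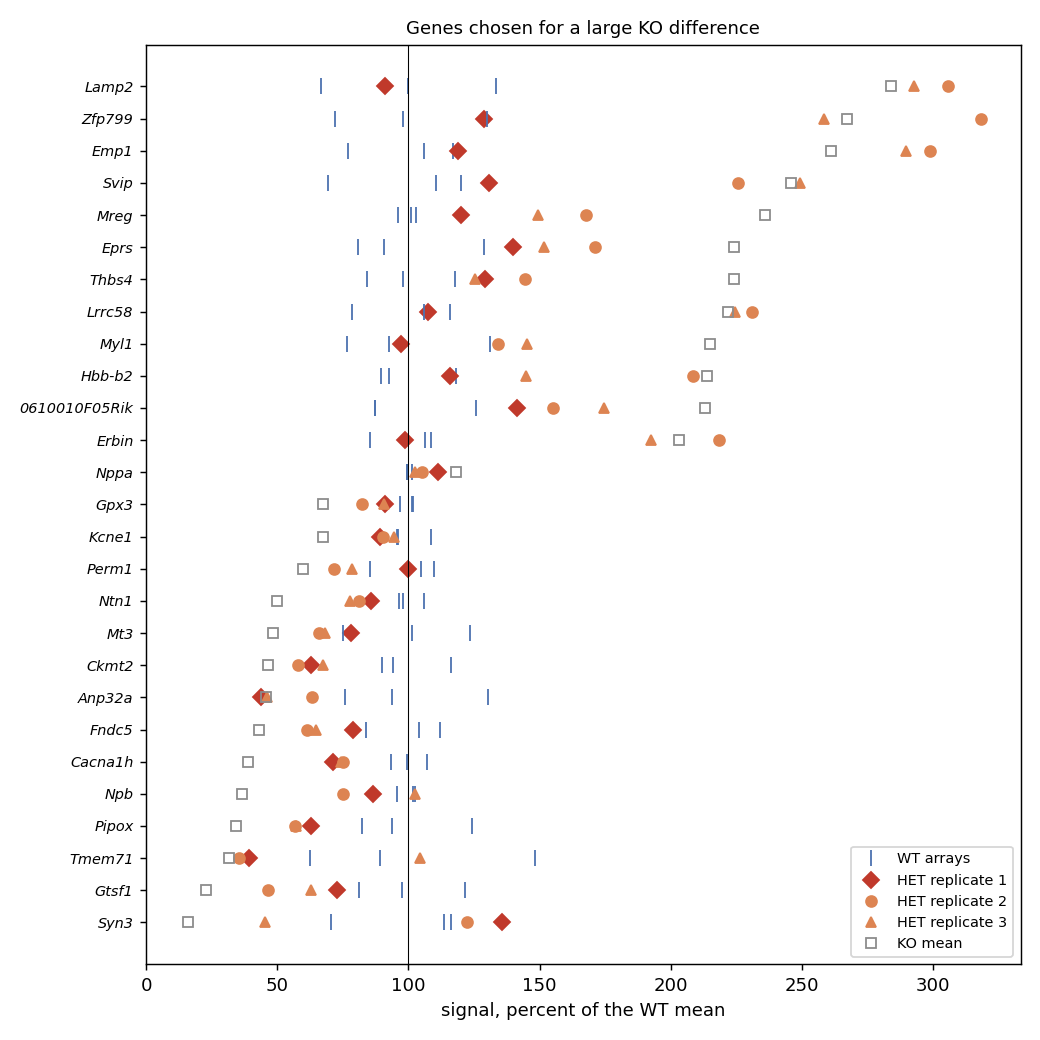
Signal as a percent of the WT mean (horizontal axis, linear, from 0) for the 27 genes chosen earlier for a large KO difference, with each WT array (blue bars), each HET array (diamond, circle, triangle) and the KO mean (open square). In Cacna1h and Ntn1 the 3 HET arrays lie together between WT and KO, and in Lamp2, Emp1 and Zfp799 HET replicate 1 lies apart from HET replicates 2 and 3.

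The ERR response element was looked for in promoters, taken as the 250 bases before and 50 after each transcription start in RefSeq (GRCm38.p6). The letters TNAAGGTCA, on either strand, were found in 3 of 500 genes that agreed lower (0.6%), 5 of 500 that agreed higher (1.0%) and 94 of all 10441 genes tested that have a window (0.9%). The narrower TCAAGGTCA, which is contained in the first, was found in 0 of 500, 2 of 500 and 36 of 10441. Of the 21 genes made up of Esrrg and the named agreeing genes, 18 had a window, and none of these held either. Among the members of smallest p in each list, Alas2, Rps3 and Sdhd held the wider letters, Sdhd in the narrower form. They were not among the agreeing genes. The shares in agreeing genes were near that of all genes, and a window without these letters says nothing of more distant sites.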

How the data were processed

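Messenger RNA of mouse ventricles was measured on Affymetrix arrays, 1 per sample, from 6 µg of total RNA per the labels. The deposited values are MAS5 signal intensities, as MAS5, with no version, is named in the submitters' processing notes. The authors' columns all have a mean of 200 without the top and bottom 2%. Probe sets naming 1 gene in the platform annotation were kept, with symbols from RefSeq (GRCm38.p6). Values were turned to log2(signal + 16), which understates differences of dim genes. The brightest probe set of each gene was used, and genes under the 40th percentile of mean level (a signal of 21.7) were not tested, leaving 13028 of 18193. Genotypes were fitted together with limma 3.58.1 in R 4.3.3 (eBayes with an intensity trend, 6 residual degrees of freedom over 9 arrays), two-sided, with Benjamini-Hochberg adjustment over all genes tested. The fit with the array batch as a block (5 residual degrees of freedom) compares HET replicate 1 with WT. The fit was tested on simulated data. The members and gene lists were chosen with earlier results of these data known, and so was the batch.

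Named genes were Esrrg, the 10 agreeing genes in each direction described in the text, 5 in each direction that did not agree, genes called within the first batch, up to 3 of smallest p in each list, and the KO list whole. Agreeing members of the lists described, Emp1, Tufm, Tomm20 and Ptprc were chosen after their values were seen. Alternatives were 2 other scalings, pseudocounts of 1 and 64, other filters, other uses of probe sets, no intensity trend, array weights, blocks, the 6 arrays alone and leaving out arrays. Gene lists were described by counts, with no set test. Python 3.11.15 and matplotlib 3.10.9 drew the figures.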

Additional observations from a re-analysis of the deposited data

How the results depend on the processing

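The count of genes called between HET and WT was 0 in the main fit and under both pseudocounts, both other filters, quantile normalization, both other uses of probe sets, no intensity trend and the 6 arrays alone. It was 3 with each array shifted to one median, 9 with array quality weights, 1 with a replicate block (Gtpbp2, adjusted p = 0.0415), 2 with the array batch as a block and 230 without HET replicate 1 and WT replicate 3 together. Leaving out 1 array gave 0 to 574, the 574 without HET replicate 1 and 1, Gtpbp2, without HET replicate 3. Same-numbered arrays correlated at -0.04 to 0.05 in their deviations, so the replicate block has no ground in the data. HET replicate 1 against WT had 2 calls, and 4 with each array shifted to one median, 8 and 1 with pseudocounts of 1 and 64, 1 without a filter, 0 for probe sets averaged per gene, 5 over single probe sets, 0 with array weights, 1 with the 6 arrays alone and 1 to 3 without 1 array. The count of agreeing genes was 1242, against 2147 over 23540 single probe sets and 1838 to 2012 without 1 WT or HET array, where fewer arrays must agree. Esrrg was lower throughout, from -0.54 to -0.10, and never called. The motif share in genes that agreed lower was 0.6%, and 0% for the narrower letters.

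With the batch as a block the sign turned in Erbin (-0.01), Lamp2 (-0.08), Hey2 (-0.09), Tomm20 (-0.09), Trdn (-0.27), Slc25a16 (-0.85), B3galt5 (-0.87), Strip2 (-0.94), Myl1 (0.00), Perm1 (0.01), Il17rc (0.27), Syn3 (0.38), Trnp1 (0.56), 1810021B22Rik (0.61) and Arhgap39 (0.77). With probe sets averaged per gene it turned in Ip6k2 (-0.07), Hadh (0.03), Mast2 (0.06), Syn3 (0.07), Il17rc (0.08), Opa1 (0.10), Cpt2 (0.11), Oga (0.11), Arhgap39 (0.13), 0610012G03Rik (0.14), Ndufab1 (0.17), Uqcrq (0.26) and Hadhb (0.28). It turned in Ip6k2 with array weights (-0.10) and with each array shifted to one median (-0.01), which also gave Mrps17 -0.02 and Dnaja1 0.00, in Kif22 with array weights (0.28) and in Uqcrh after quantile normalization (0.01). Without HET replicate 1 and WT replicate 3 together Ip6k2 was -0.23, Adck2 0.13 and Kif22 0.81. Leaving out 1 array also turned signs over ranges of -0.67 to 0.21 in 1810021B22Rik, -0.95 to 0.15 in Adck2, -0.59 to 0.12 in Arhgap39, -0.05 to 0.94 in B3galt5, -0.69 to 0.05 in Il17rc, -0.27 to 0.33 in Ip6k2, -0.80 to 0.81 in Kif22, -0.50 to 0.03 in Ptprc, -0.06 to 0.86 in Strip2, -0.27 to 0.32 in Syn3 and -0.49 to 0.11 in Trnp1. Syn3, Adck2 and Ptprc met neither rule. The causes were not tested.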
